A study of Mus musculus with 20 samples.

Results

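Cd34, Lgr5, Krt15, Postn, Tbx1, Lhx2, Sox9 and Nfib are genes used to recognise or known to maintain stem cells of the hair follicle bulge. They were taken by symbol from the gene rows of both count matrices, and all 8 of 8 were present among 31055 features. Single cells of mouse dorsal skin epidermis, labelled as anagen, when the follicle grows a hair, had been captured with the 10x Genomics 3′ version 3 chemistry. The Control mice were Nfatc1-CreER, R26R and mTmG, and received tamoxifen for 3 days from postnatal day 21 or 22. The Mutant mice carried the same alleles and were also Fgf5-/-, and their 3 days of tamoxifen began at postnatal day 23 or 24. Both groups therefore share the tamoxifen-inducible Cre driven by Nfatc1, a gene of the bulge, and the mTmG reporter, which switches from membrane tomato to membrane eGFP in recombined cells and their progeny. The labels list 4 Control and 16 Mutant samples, without saying which come from separate animals or at what age the skin was taken, and the cells of each group were pooled in 1 matrix. Each group was therefore 1 library: differences between Control and Mutant have no replicate check, carry no p-value, and cannot be told apart from the later tamoxifen days or from library effects. Intervals below are 95% intervals for counting error only.

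The bulge is the part of the outer root sheath below the sebaceous gland in which slowly cycling epithelial stem cells rest, and the hair germ beneath it is the first to divide when a new hair grows. In anagen the outer root sheath extends from the bulge down to the hair bulb, so that cells descended from bulge and germ line the whole growing follicle. Of the 8 genes, Cd34 encodes a surface sialomucin, Lgr5 a receptor for R-spondins that raises Wnt signalling, Postn the secreted matrix protein periostin, and Krt15 a type I keratin of basal cells. Tbx1, Lhx2, Sox9 and Nfib encode transcription factors of the T-box, LIM-homeodomain, SOX and nuclear factor I families. FGF5, whose gene is labelled -/- in the Mutant mice, is a secreted factor that ends anagen, and mice without it grow long hair.

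Promoter sequence was available for 4 of the 8 genes (Cd34, Lhx2, Postn and Tbx1, with 7 transcript starts), and those of Cd34 and Postn are shown because both genes were highest in the same class of cells, fibroblast-like cells. The runs are the 250 bases before a RefSeq transcript start on GRCm38.p6, read 5′ to 3′ on the plus strand, at chr1:194938571-194938820 for Cd34 and chr3:54360857-54361106 for Postn. Capitals mark the nuclear factor I half-site TTGGC or its reverse complement GCCAA.
Cd34: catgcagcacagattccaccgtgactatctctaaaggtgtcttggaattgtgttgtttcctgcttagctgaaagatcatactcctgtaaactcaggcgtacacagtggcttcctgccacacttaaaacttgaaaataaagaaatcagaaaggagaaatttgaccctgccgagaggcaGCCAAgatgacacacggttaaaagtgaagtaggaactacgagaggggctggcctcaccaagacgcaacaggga
Postn: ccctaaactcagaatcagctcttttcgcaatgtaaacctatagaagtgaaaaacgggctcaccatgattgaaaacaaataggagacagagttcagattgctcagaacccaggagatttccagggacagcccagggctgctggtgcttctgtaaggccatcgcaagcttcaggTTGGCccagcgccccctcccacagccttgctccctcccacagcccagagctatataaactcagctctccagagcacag
Each of these windows held 1 half-site. Over the 7 starts, 3 held TTGGC or GCCAA, which 41.5% of 32851 mouse promoter windows of the same length also held. The SOX core AACAAT (or ATTGTT) was found at 1 of the 7 starts, another Postn start, against 9.42% of all windows. The palindrome TAATTA, bound by LIM-homeodomain proteins, was found at 0 of the 7 starts, against 4.84% of all windows. Both strands were searched, and a match describes the letters in the window only.

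The genes lie apart in the genome. On GRCm38 (GENCODE), Krt15 (chromosome 11, 100131758 to 100135928, minus strand) and Sox9 (chromosome 11, 112782224 to 112787760, plus strand) share a chromosome. The others are Cd34 on chromosome 1 (194938819 to 194961279, plus), Lhx2 on 2 (38339281 to 38369733, plus), Postn on 3 (54361109 to 54391037, plus), Nfib on 4 (82290173 to 82705750, minus), Lgr5 on 10 (115450311 to 115587780, minus) and Tbx1 on 16 (18580979 to 18590671, minus). All 8 are protein-coding, and no other annotated gene shared a run of 31 bases with the last 400 bases of any of them, the stretch that 3′ tags come from.

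The Control matrix held 16973 barcodes with 140880809 UMIs (unique molecular identifiers, each counting 1 captured mRNA molecule) and the Mutant matrix 13411 barcodes with 97817173 UMIs. After filters on genes, mitochondrial share and called doublets, 13790 Control and 11002 Mutant cells remained, with medians of 5591.5 and 5984.5 UMIs. The libraries had 59 barcodes in common, of which 45 in each library passed the filters. Cells were clustered without the 8 genes and named without them, so that their levels did not form the classes. Of 31 clusters, 26 could be named from markers, and 22 classes had no fewer than 50 cells in either library. The bulge marker set scored highest in none of the 31 clusters, so the 8 genes are described across the classes found and not in a bulge class. Fgf5 tags were still counted in the Mutant library (9.05 CPM against 12.1 CPM in Control, where CPM is a gene's UMIs divided by all UMIs of the cells named and scaled to 1000000), and as 3′ tags can lie outside a deleted part they check nothing about the genotype. The mTmG tomato row held 0 UMIs in both libraries.

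In the outer root sheath-like class (2270 Control and 883 Mutant cells, led by Gnmt, Tagln, Fndc1 and Cbs in its larger cluster), as in cluster 5, each of the 8 genes stood above 2 times its level in the lymphocytes (the T cell and NK cell-like class) of the library where it was higher. Lymphocytes make no keratin, so their values are given as the level that RNA of other cells, free or from missed doublets, can leave. The parts of these 2 sources were not tested. At least 4 of the 8 genes were found in 5 Control and 0 Mutant thinned lymphocytes. Cluster 25 (183 Control and 0 Mutant cells) stayed unnamed and outside this class. It scored first for T cell or NK cell and second for interfollicular basal markers, with Krt15 and Il2rb among its leading genes. Different clusters held most of the lymphocytes in the 2 libraries (clusters 2 and 10 in Control, cluster 9 in Mutant). Their values were low but not nil. Krt15 reached 177 CPM in Control and 94.2 in Mutant, with a UMI in 13.8% and 7.07% of cells thinned to 1500 UMIs. The other 7 genes lay between 2.55 and 53.4 CPM in Control and between 0.364 and 30.2 CPM in Mutant. Melanocyte-like cells, with deeper medians of 15428 and 13695 UMIs, held Krt15 at 32.6 and 19.2 CPM, so the level outside keratinocytes differed between classes. Median depth was 2286 and 1947 UMIs in these lymphocytes, against 5549 and 4917 in outer root sheath-like cells. Shares of cells given below are therefore of cells thinned to 1500 UMIs, with the unthinned share where both are useful.

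**Figure D1:**
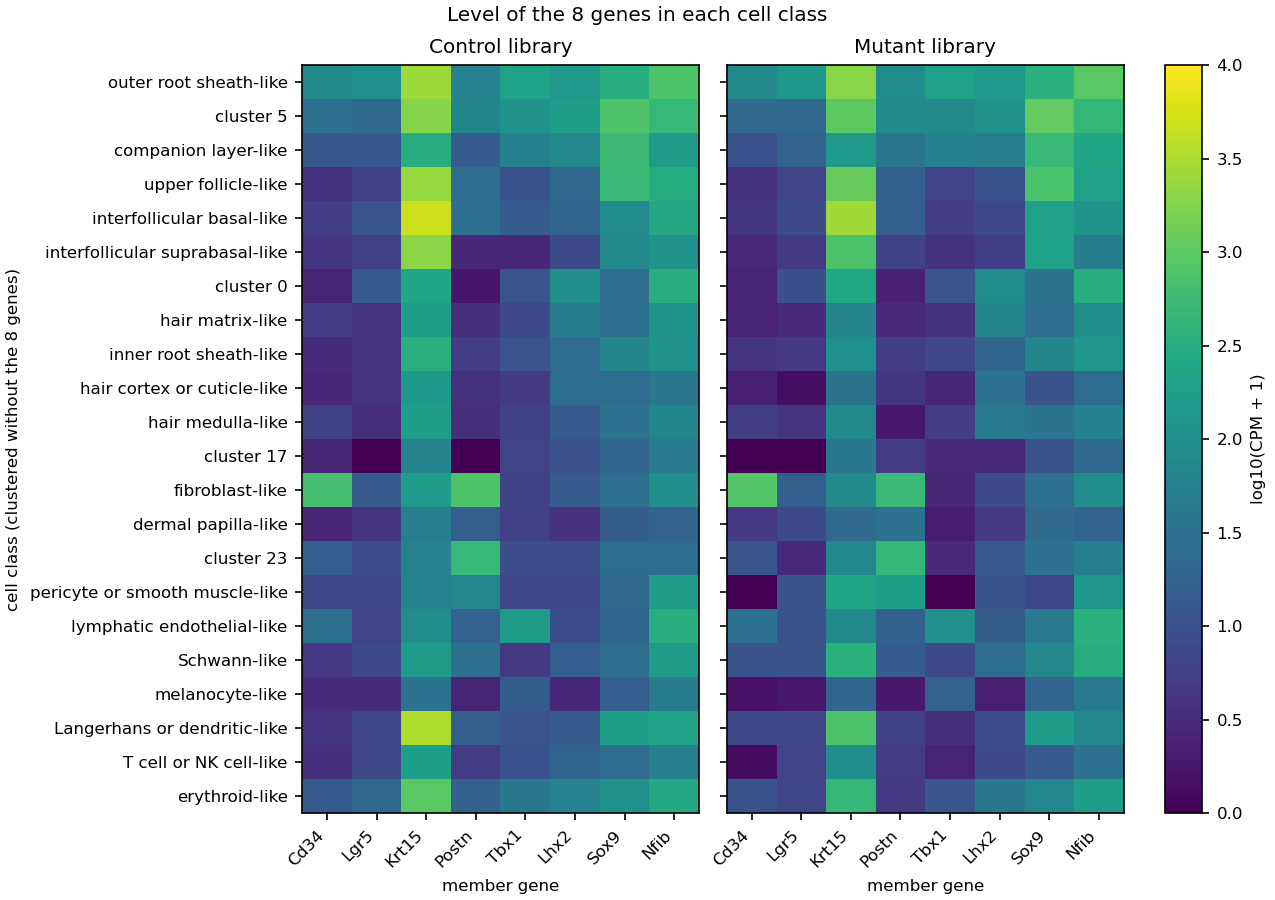
Level of each of the 8 genes in the 22 compared classes, as log10(CPM + 1) by colour, for the Control library (left) and the Mutant library (right). The outer root sheath-like row holds all 8 genes, while Krt15 spreads to interfollicular basal-like and Cd34 and Postn to fibroblast-like cells.

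Cd34, the surface marker by which bulge cells are sorted, was at 79.3 CPM in Control and 75 CPM in Mutant outer root sheath-like cells, with intervals of 75.1 to 83.7 and 67.8 to 82.8 that overlap. It was detected in 11.8% and 11% of these cells after thinning (38.5% and 32.5% before), against 0.375% and 0.0981% of the lymphocytes. Fibroblast-like cells held far more of it: 670 CPM in Control and 837 CPM in Mutant. Cd34 was thus highest among the 22 classes in a dermal class, not in the follicle, in both libraries. The fibroblast-like class held 38.6% of all Cd34 UMIs in Control and 76.1% in Mutant, and the outer root sheath-like class 42.6% and 14.8%. Below these 2 classes came cluster 5 (29.2 and 22.5 CPM) and lymphatic endothelial-like cells (27.4 and 31.1 CPM), whose intervals overlap. Upper follicle-like cells, at 2.86 and 2.81 CPM, and interfollicular basal-like cells, at 4.42 and 3.23 CPM, were near the lymphocyte level in Control.

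Lgr5 was the member whose UMIs were most concentrated in outer root sheath-like cells in both libraries. They carried 67.6% of its Control and 59.8% of its Mutant UMIs, at 104 and 135 CPM (intervals 99.2 to 109 and 125 to 145, which do not overlap). It was detected in 15.6% and 20.5% of thinned cells, against 0.825% and 0.687% of lymphocytes. The next class in order, cluster 5, stood at 23.5 and 20.8 CPM. Interfollicular basal-like cells (10.5 and 7.49 CPM) did not exceed 2 times the lymphocyte values of 6.37 and 5.45 CPM, and fibroblast-like cells (13.4 and 15.2 CPM) did.

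Postn, which binds integrins and collagen, had 2 kinds of source. Among the 22 classes it was highest in fibroblast-like cells, at 751 CPM in Control and 525 CPM in Mutant, and next in cluster 23, led by Ccdc80, Lrrc15, Igfbp2 and Acta2, at 485 and 463 CPM, where the Mutant intervals of the 2 overlap. In the epithelium it was at 59.3 and 87 CPM in outer root sheath-like cells and 66.9 and 80.1 CPM in cluster 5, whose intervals overlap in both libraries. Interfollicular basal-like cells held 28.2 and 15.9 CPM and upper follicle-like cells 27 and 16 CPM, against 3.94 and 4 CPM in the lymphocytes. Fibroblast-like cells accounted for 33.6% of Postn UMIs in Control and 47.3% in Mutant.

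Krt15 marks basal cells beyond the bulge, and its highest class was the interfollicular basal-like one, at 4968 CPM in Control and 2693 CPM in Mutant. Outer root sheath-like cells followed in Mutant, at 1970 CPM, and held 2593 CPM in Control, behind Langerhans or dendritic-like cells at 3282 CPM. Upper follicle-like cells (2433 and 1195 CPM) and cluster 5 (1901 and 968 CPM) also held it. Interfollicular basal-like cells carried 30% of the Krt15 UMIs in Control and 44.8% in Mutant, and outer root sheath-like cells 28.8% and 19.9%. Detection after thinning reached 97.4% and 87.5% of interfollicular basal-like and 81.9% and 76.9% of outer root sheath-like cells, well above the 13.8% and 7.07% of the lymphocytes. In fibroblast-like (157 and 77.6 CPM), hair matrix-like (168 and 66.1 CPM) and dermal papilla-like cells (51.3 and 22.7 CPM) Krt15 was below the lymphocyte level of its library.

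Tbx1, known from bulge cells in culture and in repeated hair cycles, was highest in outer root sheath-like cells, at 205 CPM in Control and 195 CPM in Mutant. That class held 60.3% and 50.9% of its UMIs, and a UMI was found in 27.8% and 25% of thinned cells, against 1.05% and 0.0981% of lymphocytes. Lymphatic endothelial-like cells came next, at 152 and 100 CPM. Tbx1 is also a known gene of lymphatic vessels, and this second class lies outside the epithelium. Cluster 5 held 111 and 74.2 CPM, and companion layer-like cells 56.3 and 55.6 CPM.

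Lhx2 was the 1 gene of the 8 whose highest class differed between the libraries. In Control it was cluster 5, at 171 CPM (163 to 180), ahead of outer root sheath-like cells at 143 CPM (138 to 149). In Mutant it was the outer root sheath-like class, at 142 CPM (132 to 152), ahead of cluster 5 at 111 CPM (99.7 to 122). Neither pair of intervals overlaps. Cluster 0, whose leading genes Hist1h1b, Pclaf, Mki67 and Top2a belong to dividing cells, held 93.9 and 87.5 CPM, and with 1688 Mutant and 1062 Control cells it carried 43.7% of the Mutant but 15.7% of the Control Lhx2 UMIs. Interfollicular basal-like cells were at 18.6 and 6.57 CPM, close to the lymphocyte values of 18.2 and 7.27 CPM.

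Sox9, needed for the outer root sheath to form, was highest in cluster 5, at 793 CPM in Control and 1088 CPM in Mutant. Cluster 5 (723 and 428 cells) was led by Pthlh, Krt6a, Wfdc18 and C2cd4b and scored for both companion layer and outer root sheath markers, so it stays unnamed. Companion layer-like cells (556 and 499 CPM), upper follicle-like cells (503 and 729 CPM) and outer root sheath-like cells (337 and 356 CPM) followed. The Control intervals of the companion layer-like and upper follicle-like classes overlap, and in Mutant the upper follicle-like value was higher with no overlap. Sox9 was detected in 56.9% and 66% of thinned cluster 5 cells and in 30.4% and 32.6% of outer root sheath-like cells, against 2.03% and 1.86% of lymphocytes.

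Nfib, known to keep the melanocyte stem cells of the follicle from dividing at the wrong time, was found in many classes. Outer root sheath-like cells were highest, at 785 CPM in Control and 939 CPM in Mutant, with a UMI in 68.9% and 73.3% of thinned cells against 3.15% and 2.55% of lymphocytes. Cluster 5 (482 and 446 CPM), cluster 0 (329 and 335 CPM) and lymphatic endothelial-like cells (331 and 359 CPM) came after. Outer root sheath-like cells held 41.4% of Nfib UMIs in Control and 28.4% in Mutant, and cluster 0 held 11.6% and 34.2%.

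For 7 of the 8 genes the highest class was the same in both libraries, Lhx2 being the exception. The genes whose pattern over the 22 classes was most like each member, by the mean over both libraries of Pearson's r of log2(CPM + 10) among 5945 eligible genes, fell into a few kinds. Those most like Krt15 were the basal cell genes Col17a1 (mean r 0.951), Krt14 (0.933) and Krt5 (0.909), and those most like Sox9 were Barx2 (0.936), Fam167a (0.912) and Krt17 (0.874). Cd34 ran with Medag (0.916), Cyp2f2 (0.86) and Spon2 (0.855), and Postn with Axl (0.903), Bgn (0.888) and Nbl1 (0.876). Lgr5 ran with Slc1a3 (0.887), Dhrs9 (0.882) and Cyp2s1 (0.875), and Tbx1, less closely, with Galnt18 (0.787), Gnmt (0.776) and Heg1 (0.772). Lhx2 was most like Slc16a7 (0.896), Gja1 (0.835) and Stk26 (0.826), and Nfib most like Atf3 (0.848), Creb5 (0.82) and Hspa4l (0.814). The classes share 2 libraries and their depths, so these values are descriptions. Between members, the highest r was that of Krt15 with Sox9, 0.771 in Control and 0.762 in Mutant. Cd34 with Postn gave 0.745 and 0.644, and Lgr5 with Tbx1 gave 0.703 and 0.736, while Cd34 with Krt15 gave 0.0705 and 0.0909.

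Subclustering of the 4 outer follicle clusters (the outer root sheath-like class, cluster 5 and the companion layer-like class, 3047 Control and 1361 Mutant cells) gave 11 subclusters, 7 of them with at least 50 cells in each library. The members peaked in different ones, as the plot by subcluster shows. Subcluster outer 6 (217 and 53 cells), led by Acta2, Tagln, Dio3 and Krt19, was highest for Cd34 (126 and 140 CPM) and Krt15 (5896 and 4997 CPM), although in Mutant the Cd34 interval overlaps those of outer 0, outer 1 and outer 7, and the Krt15 interval that of outer 7. Subcluster outer 0 (608 and 264 cells), led by Angptl7, Scrg1 and Gnmt, was highest for Tbx1, at 364 and 348 CPM. Outer 3 (332 and 138 cells), led by Cux1, Mt1 and Slc39a10 and holding Fgf5 at 189 and 246 CPM, was highest for Nfib (1088 and 1095 CPM, in Mutant overlapping outer 0 and outer 1) and lowest for Sox9 (52 and 40.2 CPM) and for Postn (3.59 and 7.31 CPM, near the lymphocyte level). Lgr5 was high in both of these: 155 and 176 CPM in outer 3 and 135 and 178 CPM in outer 0, with overlapping intervals. In Mutant the Lgr5 intervals of outer 6 (168 CPM) and outer 1 (133 CPM) overlap those of both as well.

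Subcluster outer 7 (192 and 72 cells) was where Nfatc1, the gene that drives the Cre in these mice, was highest among the 7, at 85.8 CPM in Control and 89.8 CPM in Mutant, against 0.842 to 8.56 CPM in the other 6 in Control and 0 to 13.5 CPM in Mutant. It was led by Cst6, Krt79, Aqp3 and S100a4. Of these, Cst6 and Krt79 are in the upper follicle marker set and S100a4 in the bulge set, so it was not named as either. An eGFP UMI was found in 79.3% of its thinned Control and 88.6% of its thinned Mutant cells, against 45% and 59.3% of all outer follicle cells and 15% and 21.2% of the lymphocytes. Postn (127 and 134 CPM) and Lhx2 (258 and 234 CPM) were highest here, although in Mutant the Postn interval overlaps those of outer 0 and outer 1, and the Lhx2 interval those of outer 0, outer 3 and outer 6. Sox9 (857 and 1011 CPM) and Krt15 (4207 and 4761 CPM) stood first or second among the 7. Cd34 was here at 52.1 and 74.4 CPM, below outer 6 in Control and with overlapping intervals in Mutant. Lgr5 was below outer 6 in both libraries, at 33.9 and 59.1 CPM against 100 and 168 CPM.

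**Figure D2:**
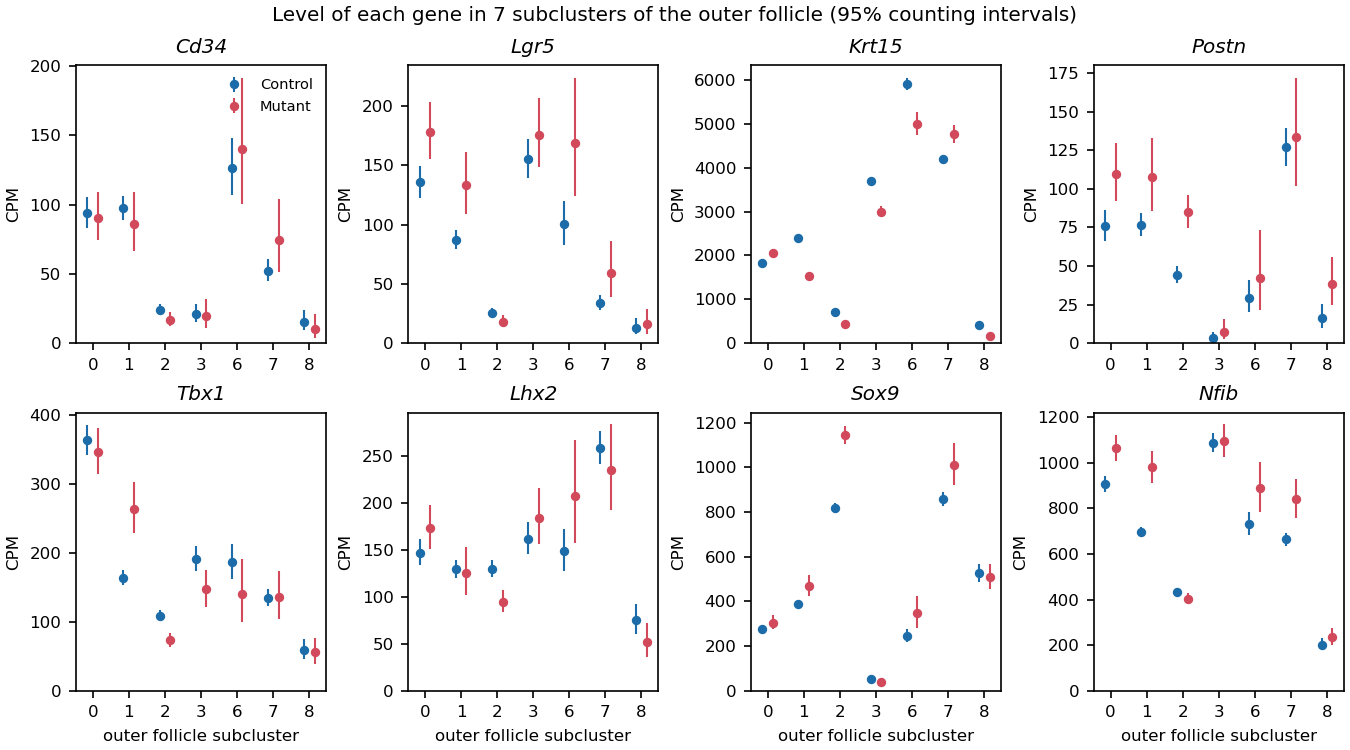
Level of each gene in CPM (linear axes from 0, points with 95% counting intervals) in the 7 outer follicle subclusters with at least 50 cells in each library, Control in blue and Mutant in red. Cd34 and Krt15 peak in subcluster 6, Tbx1 in 0, Nfib in 3, and Postn and Lhx2 in 7, in both libraries.

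How the genes met in single cells was asked within outer follicle cells thinned to 1500 UMIs (2963 Control and 1335 Mutant cells). A cell had a UMI of 2.46 of the 8 genes on average in Control and of 2.38 in Mutant. At least 4 genes were found in 554 cells (18.7%, 17.3 to 20.1, exact Clopper-Pearson) in Control and in 263 cells (19.7%, 17.6 to 21.9) in Mutant, with intervals that overlap. The most found together were 7 genes, in 2 Control cells and 1 Mutant cell, and 0 cells held all 8. Outer 7 had at least 4 genes in 34% and 28.6% of its cells and outer 0 in 25.8% and 34.9%, while the Pthlh-led outer 2 had them in 6.17% and 4.26%. Outside the outer follicle the share was 0.919% and 0.304% of interfollicular basal-like, 0.265% and 1.08% of fibroblast-like and 0.188% and 0% of lymphocyte cells (0 of 1019, an upper limit of 0.361%).

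**Figure D3:**
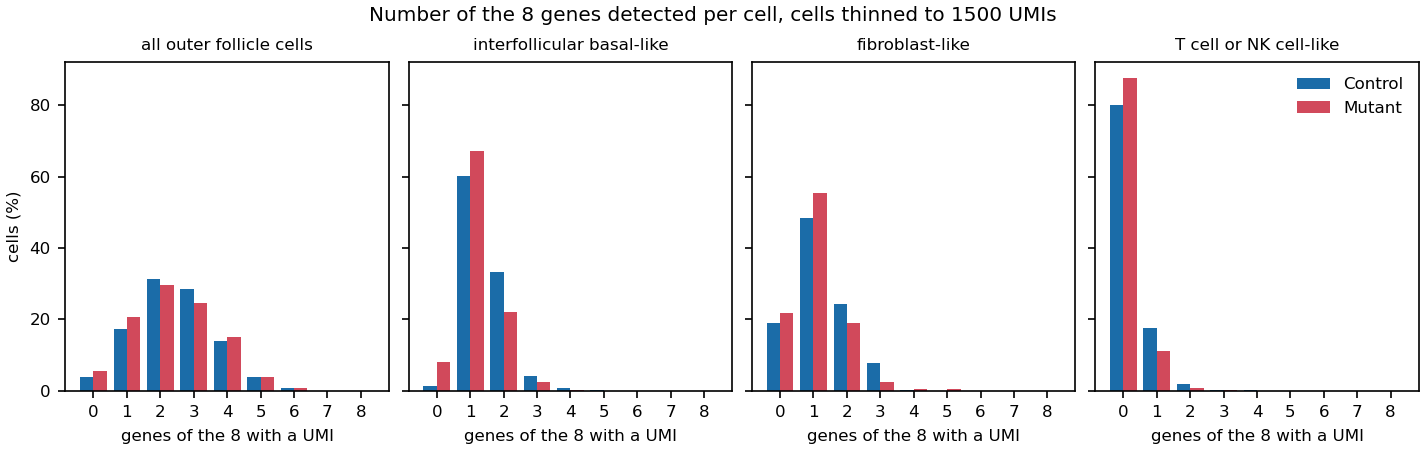
Share of cells in percent by how many of the 8 genes had a UMI after thinning to 1500 UMIs, in all outer follicle cells and in the interfollicular basal, fibroblast and lymphocyte classes, Control in blue and Mutant in red. Outer follicle cells centre on 2 or 3 genes, and lymphocytes on 0.

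For each of the 28 pairs, the number of cells with both genes was set against the number that the product of the 2 shares gives, with an exact Poisson interval on the cells with both. In all outer follicle cells 0 of 28 pairs passed 1.5 times that product, or fell under its inverse, in either library. The ratio cannot exceed the inverse of the larger share. A gene found in most cells, such as Krt15 or Nfib in outer root sheath-like cells, can thus put the upper mark out of reach. The interval lay wholly within 1.5 times in both directions for 24 pairs in Control and 12 in Mutant, and for the rest it reached past that mark. Lgr5 and Tbx1 had the highest ratio in both libraries: 124 Control cells held both against 93.4 (1.33, 1.10 to 1.58), and 56 Mutant cells against 38.3 (1.46, 1.11 to 1.90). Cd34 and Krt15, often used together to mark bulge cells, were in 252 Control cells together (1.20, 1.06 to 1.36) and in 88 Mutant cells (1.29, 1.03 to 1.59), and Lgr5 was present as well in 35 and 18 of them. Krt15 and Sox9 met less often than their shares give, at 0.897 (0.832 to 0.966) in Control and 0.829 (0.737 to 0.930) in Mutant, although across classes they had the highest correlation among the members. Over all cells of every class, 25 of 28 pairs in Control and 21 in Mutant passed 1.5 times the product, for example Cd34 and Postn at 4.69 and 5.02. Joint detection beyond the product was thus common over all cells, which include classes that lack the genes. Within the outer follicle no pair reached the mark, which the ceiling on pairs with a very common gene partly sets.

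**Figure D4:**
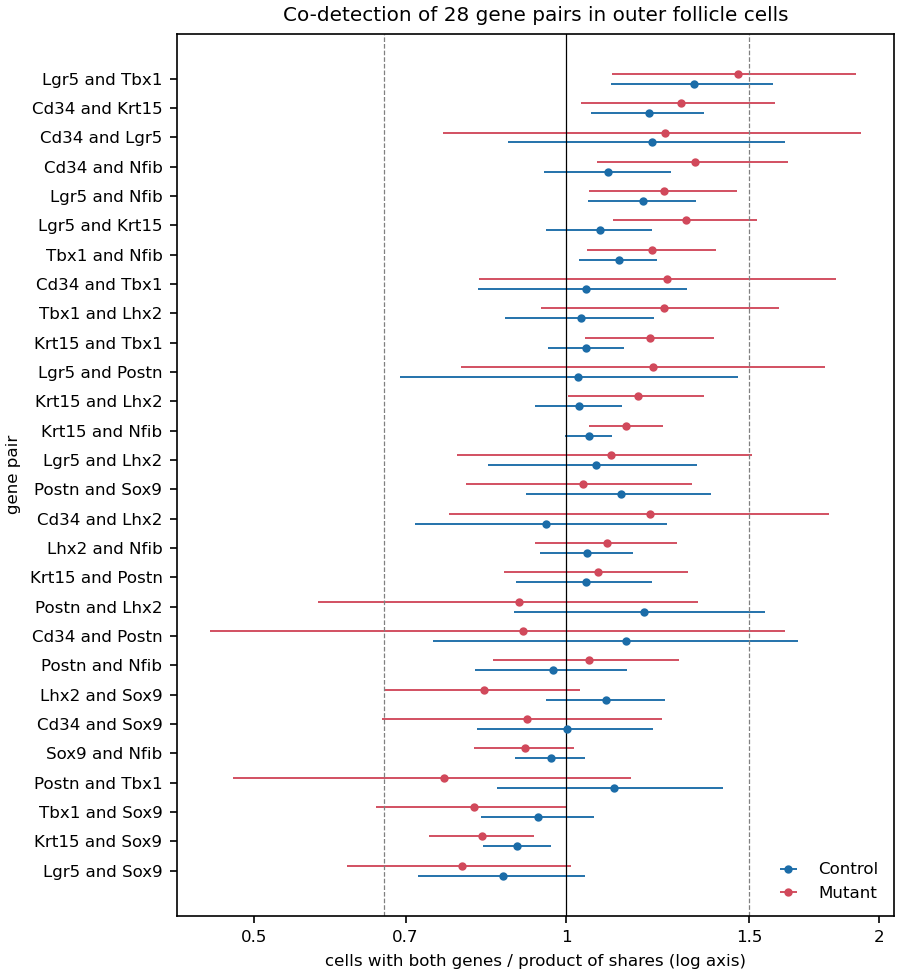
Cells holding both genes of a pair divided by the product of the 2 genes' shares (log axis, 95% counting intervals), for the 28 pairs in outer follicle cells thinned to 1500 UMIs, Control in blue and Mutant in red. Solid line at 1, dashed lines at 1.5 and its inverse; no point passes a dashed line, and Lgr5 with Tbx1 sits highest.

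Taken alone, cluster 5 had 2 of 28 pairs past the mark with an interval above the product in each library, and Cd34 with Krt15 was the pair common to both. Cd34 and Krt15 were together in 21 Control cells against 12.1 (1.73, 1.07 to 2.65) and in 11 Mutant cells against 5.32 (2.07, 1.03 to 3.70). The counts are small, the lower bounds are close to 1, and the share of other gene pairs passing in cluster 5 was not counted. The outer root sheath-like class and each of the 7 subclusters had 0 such pairs. Pairs with a very common gene, such as Krt15 in 93.8% of thinned Control outer 3 cells, could not reach the mark there. A minimum number of joint cells was also needed, and Cd34 with Krt15 met in 4 Control and 5 Mutant cells of outer 2. The counts of 0 therefore do not show that joint detection was absent.

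Other tags in the same outer follicle cells differed with the members. Cells with Krt15 more often held at least 2 UMIs of the DNA replication list than cells without it, 31% against 15.8% in Control and 22.7% against 9.68% in Mutant. They also more often held an Fgf5 UMI, 7.97% against 1.83% and 6.51% against 0.988%. Cells with Sox9 went the other way for the mitosis list, with 12% against 17.8% in Control and 4.92% against 11% in Mutant. Cells with Postn more often carried eGFP, 60.9% against 43.6% in Control and 76.9% against 57.1% in Mutant, whereas for Cd34 the eGFP shares were 41.4% against 45.4% and 52.7% against 59.8%. Thinned cells have equal depth, and the subclusters differ in their Fgf5, eGFP and member levels; the part of these differences in the shares was not tested.

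The comparison of the libraries asks how the 8 genes differ between skin labelled Fgf5-/- and Control skin. A ratio is called large where it is at least 2-fold, its nearer bound is past 1.5-fold and the higher library has at least 20 CPM. In outer root sheath-like cells all 8 genes were measured and 0 of 8 had a large ratio, where 0.842% of 5704 genes were called higher and 1.1% lower in Mutant. The log2 ratios of Mutant over Control were -0.08 (-0.25 to 0.08) for Cd34, 0.37 (0.24 to 0.50) for Lgr5, 0.55 (0.39 to 0.71) for Postn and -0.40 (-0.43 to -0.37) for Krt15. Those of the transcription factors were -0.07 (-0.17 to 0.03) for Tbx1, -0.02 (-0.14 to 0.10) for Lhx2, 0.08 (0.00 to 0.15) for Sox9 and 0.26 (0.21 to 0.30) for Nfib. Every one of these intervals lies inside 2-fold, so a doubling or halving of the level per UMI in this class lies outside the counting error of these libraries, and the spread between animals is unknown. The median over the members was 0.03, and over all genes of the class -0.08.

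Of the other bulge and hair germ genes, 20 of 28 were measured in outer root sheath-like cells, 0 were higher and 1 lower. That 1 gene was Hopx, a homeodomain protein of bulge cells, at 40.1 CPM in Control and 12 CPM in Mutant (log2 -1.75). In cluster 5 Hopx was also the only one of 21 with a large ratio, at 150 and 20.2 CPM (-2.90). None of the 10 measured relatives of the members (such as Lgr4, Sox4 or Nfia) had a large ratio in outer root sheath-like cells. Of the DNA replication genes 1 of 17 measured was lower (Gins2, -1.20), and of the mitosis genes 4 of 15 (Ccnb2 -1.23, Cdc20 -1.17, Tpx2 -1.10 and Birc5 -1.07). Some division genes were thus lower in a class in which none of the 8 genes passed the mark. Of the outer follicle subclusters too small in 1 library to be compared, outer 5, led by Ube2c, Cenpf, Cdca3 and Mki67, held 262 Control and 41 Mutant cells. Outer 4, led by Epgn, held 41 and 268. The part of such cells in these ratios was not tested.

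In cluster 5 again 0 of 8 members had a large ratio, where 1.68% of 5481 genes were called higher and 2.01% lower. Krt15 came closest, at 1901 CPM in Control and 968 CPM in Mutant (log2 -0.97, -1.03 to -0.92). It passed the mark when cells were filtered more strictly (-1.13), when the 8 genes were allowed to shape the clusters (-1.01) and without the barcodes common to both libraries (-1.001). The log2 ratios of Tbx1 (-0.58, -0.79 to -0.38) and Lhx2 (-0.63, -0.80 to -0.47) lay below 0 and that of Sox9 above it (0.46, 0.40 to 0.51), all inside 2-fold. Among the subclusters, Krt15 was at 709 and 432 CPM (-0.72) in the Pthlh-led outer 2, which held 485 Control and 335 Mutant cells. In outer 7, with 192 and 72 cells, it was at 4207 and 4761 CPM (0.18). The part of a changed mix of such cells in the cluster 5 ratio was not tested. Over the 7 compared subclusters, 53 pairs of gene and subcluster were measured, that is, at 20 CPM or more in the higher library, and 1 had a large ratio, where 1.38% of all genes were called higher and 1.21% lower. It was Krt15 in the Krt75-led outer 8, at 411 CPM in Control and 159 CPM in Mutant (log2 -1.37), where 1.54% of genes were called lower. In outer 7 the Nfatc1-rich cells showed 0 of 8 (2.9% of genes called higher, 1.48% lower), with log2 ratios from -0.14 for Lhx2 to 0.80 (0.14 to 1.42) for Lgr5. In the same cells Hopx (256 and 54.7 CPM, -2.23) and Krt24 (30.5 and 6.57 CPM, -2.22), both bulge genes of the list, were lower. There Igfbp5 (1.65), Col17a1 (1.22), Timp3 (1.18) and Itga6 (1.02) were higher, 4 and 2 of 24 measured.

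Krt15, Sox9 and Nfib had large ratios in the keratinocytes outside the lower follicle. In interfollicular basal-like cells (1014 and 1321 cells) Sox9 was at 85 CPM in Control and 196 CPM in Mutant, 2.31-fold higher (log2 1.21, 1.08 to 1.33). Its share of thinned cells was 6.13% and 12.4%. Nfib was at 255 CPM in Control and 118 CPM in Mutant in the same class, 2.16-fold lower (-1.11, -1.22 to -1.01). These are 1 of 4 measured members in each direction, where 5.25% of 5641 genes were called higher and 15.4% lower. Krt15 did not pass, at 4968 and 2693 CPM (-0.88, -0.91 to -0.86), nor did Postn, at 28.2 and 15.9 CPM (-0.82). The class is held by different clusters in the 2 libraries: cluster 3, led by Tslp, Epgn and Ccl20, held 27 Control and 1263 Mutant cells, and cluster 11, led by Ndufa4l2, Clca3a2 and Fcgbp, held 987 and 58. A cluster that comes mostly from 1 library may be that library and not a type. When the libraries were clustered separately the Sox9 ratio in this class turned to -0.68, and it missed the mark in 5 of 12 alternatives; Nfib missed it in 7 of 12.

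In interfollicular suprabasal-like cells (195 and 500 cells), which are leaving the basal layer, Sox9 was at 76.3 CPM in Control and 210 CPM in Mutant (log2 1.46, 1.19 to 1.74). Krt15 was at 1988 and 766 CPM (-1.38, -1.45 to -1.31) and Nfib at 113 and 46.1 CPM (-1.29, -1.59 to -0.996). This is 1 of 3 measured members higher and 2 lower, where 6.99% of 5482 genes were called higher and 16.4% lower. TMM factors put the centre of this class at a log2 shift of -0.47 and that of the basal-like class at -0.31. Relative to those shifts Nfib in both classes and Krt15 here (-0.91) no longer passed. Sox9 passed in all alternatives but the coarser clustering, where it was at 0.18.

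In upper follicle-like cells (308 and 460 cells) 1 of 5 measured members had a large ratio, Krt15, at 2433 CPM in Control and 1195 CPM in Mutant (log2 -1.03, -1.08 to -0.97). Here 10.2% of 5644 genes were called lower and 4.36% higher. Sox9 was at 503 and 729 CPM (0.54), Nfib at 300 and 196 CPM (-0.62) and Lhx2 at 20.8 and 9.82 CPM, whose ratio of -1.08 had too wide an interval (-1.69 to -0.50). The Krt15 call was lost in 6 of 11 alternatives, TMM among them.

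**Figure D5:**
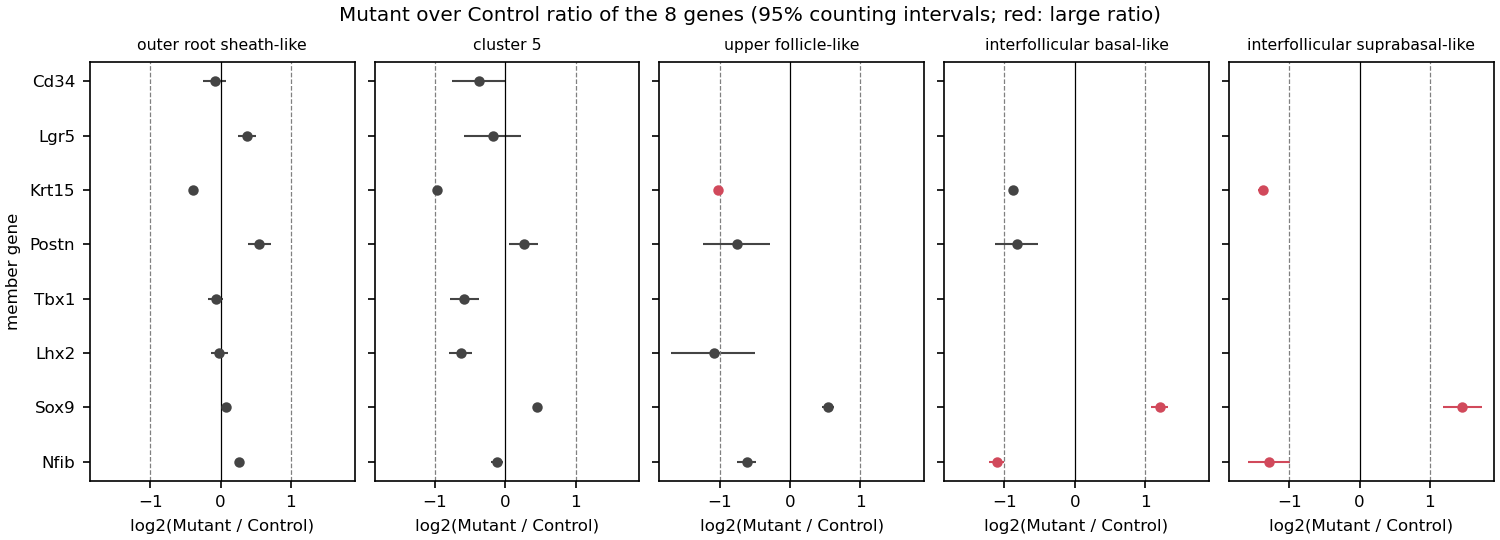
Log2 ratio of Mutant over Control for the members measured in 5 keratinocyte classes, with 95% counting intervals; dashed lines mark 2-fold and red points large ratios. No point is red in outer root sheath-like cells or cluster 5, and Sox9 and Nfib part in opposite directions in the interfollicular classes.

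Of the other gene lists, some genes had large ratios in these interfollicular classes, in both directions and beside the class-wide shares of 5.25% higher and 15.4% lower in basal-like and 6.99% and 16.4% in suprabasal-like cells. Of the relatives of the members in basal-like cells, Krt16 (339 and 2737 CPM, log2 3.01) and Krt17 (1.86), keratins of stressed epidermis, were higher, and Nfia (-1.74), Sox21 (-1.70), Lgr6 (-1.63), Lgr4 (-1.18) and Nfix (-1.15) lower, 2 and 5 of 12 measured. In suprabasal-like cells Krt16 was again higher (541 and 6229 CPM, 3.52) and Nfia (-2.39), Sox6 (-1.83), Tgfbi (-1.48) and Nfix (-1.33) lower, 1 and 4 of 10. Of the bulge and hair germ list in basal-like cells, Itgb6 (2.32) and Col17a1 (1.16) were higher and Gas1 (-2.72), Hopx (-2.41), Sfrp1 (-2.19) and Cxcl14 (-1.18) lower, 2 and 4 of 17. All 16 of 16 measured mitosis genes were lower in basal-like cells, with a median of -2.58, and 6 of 8 replication genes; their part in the Sox9 and Nfib ratios was not tested.

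In fibroblast-like cells (394 and 499 cells), where Cd34 and Postn were highest, neither passed: Cd34 was at 670 and 837 CPM (log2 0.32, 0.22 to 0.42) and Postn at 751 and 525 CPM (-0.52, -0.63 to -0.40). The 1 of 5 measured members called here, where 4.76% of 6330 genes were called lower and 2.88% higher, was Krt15 (157 and 77.6 CPM, -1.01), which lies below the lymphocyte level of the same libraries and missed the mark in 7 of 12 alternatives. In lymphatic endothelial-like cells Tbx1 was at 152 and 100 CPM (-0.59, -1.13 to -0.08).

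Over all 22 classes there were 176 pairs of gene and class, of which 96 were measured, 5 with a large ratio higher in Mutant and 17 lower. Over all genes of these classes 3.18% were called higher and 4.75% lower. Of the 17 lower pairs 11 were Krt15, 3 Nfib, and 1 each Lgr5, Tbx1 and Sox9; of the 5 higher, 2 each were Krt15 and Sox9 and 1 was Lhx2. With TMM factors the split was 6 higher and 10 lower. Where only pairs over 2 times the lymphocyte level were kept, 69 were measured, 5 higher and 9 lower. Krt15 in the lymphocytes themselves was at 177 and 94.2 CPM (log2 -0.91, -1.10 to -0.72), and 7 of its 11 lower pairs did not exceed 2 times that level. These 7 were the fibroblast-like, inner root sheath-like (2.08% of genes called lower), hair matrix-like (1.9%), dermal papilla-like (8.32%), hair medulla-like (6.57%), hair cortex or cuticle-like (2.97%) and companion layer-like (1.56%) classes. The lymphocyte level was not matched for depth, and all 7 were above the Krt15 values of the deeper melanocyte-like cells (32.6 and 19.2 CPM). How much of the Krt15 in these 7 classes was free RNA or came from missed doublets was not tested. The other 4 were the upper follicle-like, suprabasal-like, erythroid-like and Langerhans or dendritic-like classes.

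Outside the keratinocytes that line the follicle and the epidermis, a few of the called pairs stood above the lymphocyte mark. Lhx2, which is also a gene of the hair bulb, was in hair medulla-like cells at 13.6 CPM in Control and 45.2 CPM in Mutant (log2 1.73, 1.04 to 2.48), where 6.29% of genes were called higher. In Langerhans or dendritic-like cells Krt15 was at 3282 and 774 CPM (-2.08) and Nfib at 203 and 69.6 CPM (-1.55), where 8.63% of genes were called lower. That class scored second for interfollicular basal markers, and its median depth was 15449.5 UMIs in Control against 4314 in Mutant; the part of attached keratinocytes was not tested. In erythroid-like cells Krt15 (957 and 456 CPM, -1.07), Tbx1 (38.3 and 10.7 CPM, -1.84) and Lgr5 (22.7 and 5.92 CPM, -1.94) were lower, where 2.38% of genes were called lower. The Lgr5 call was lost in 6 of 10 alternatives, TMM and DESeq2 factors among them, the Krt15 call with both of those factors, and the Tbx1 call in 1 of 10. The erythroid-like class scored second for outer root sheath markers (0.825 against 5.69 for its own). At least 4 of the 8 genes were found in 3.11% of its thinned Control cells and in 0 of 113 Mutant cells (upper limit 3.21%). The part of attached keratinocytes was not tested here either. Krt15 was higher in Schwann-like (151 and 354 CPM, 1.23, where 0.993% of genes were called higher) and pericyte or smooth muscle-like cells (58.1 and 228 CPM, 1.97, where 1.84% were). These classes are not known to make a keratin, and the Control value of both lies below the lymphocyte level. The values rest on 41 Control and 105 Mutant UMIs in Schwann-like and on 10 and 71 UMIs in pericyte or smooth muscle-like cells. The Schwann-like call was lost in 3 of 11 alternatives and the pericyte or smooth muscle-like call in 3 of 9.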

How the data were processed

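Cells of both groups were measured by 10x 3′ single-cell RNA-seq, 1 matrix per group. The deposited values are UMI counts per gene and barcode, which per the file headers the authors made with Cell Ranger 3.0.2. Seurat 3.0.0 and 3.1.0 and the build GRCm38 (mm10) are named in the submitters' processing notes, and the annotation release is not given in the sources used here. Barcodes under 500 genes or over 15% mitochondrial UMIs were removed. Doublets were called with Scrublet in scanpy 1.11.5 and removed, 366 Control (2.59%) and 453 Mutant cells (3.95%), fewer than the 11.3% and 9.16% expected from loading.

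Cells were clustered on 2000 variable genes without the 8 members (30 components, 15 neighbours, leidenalg 0.10.2, resolution 1, and 0.5 for outer follicle cells), in Python 3.11.15. Clusters were named from 30 marker sets. UMIs were summed per class and library. Ratios have exact conditional intervals for 2 Poisson counts, levels exact Poisson intervals and shares Clopper-Pearson intervals, all at 95% and for counting error only, since each group is 1 library. Shares and joint detection used cells thinned to 1500 UMIs. Alternatives used TMM factors of edgeR 4.0.16 and size factors of DESeq2 1.42.0 in R 4.3.3.

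Named genes are the 8 members in every class, the 3 genes most like each, up to 6 genes with a large ratio per list and class, and Nfatc1, eGFP and tomato. Other genes are named as leading genes of a cluster. The members and lists were chosen with earlier results of these data known. Counts were simulated for the outer root sheath-like class over 31055 genes, with counting error as the only noise. Of genes changed 3-fold, 65 of 66 were called. Calls fell on 0 of 67 genes changed 1.5-fold and on 0 of 5355 unchanged genes, which lie under the 2-fold mark by design. Differences between animals, libraries or mixes of cells were not simulated, so no rate of false calls between the 2 libraries follows.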

Additional observations from a re-analysis of the deposited data

Results flagged for a closer look

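Krt15 is listed here because its ratio was large in opposite directions in different classes, which each rest on 1 library per group, so that the difference between the classes was not tested. The log2 ratio of Mutant over Control was 1.23 in Schwann-like and 1.97 in pericyte or smooth muscle-like cells. It was -1.03 in upper follicle-like, -1.38 in interfollicular suprabasal-like, -1.07 in erythroid-like and -2.08 in Langerhans or dendritic-like cells. In the Schwann-like and pericyte or smooth muscle-like classes, Control Krt15 was below the lymphocyte value of 177 CPM, at 151 and 58.1 CPM. These 2 calls were lost in 3 of 11 and in 3 of 9 alternatives.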

How the results depend on the processing

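Of the 22 pairs of gene and class with a large ratio, 3 kept their call in all alternatives that recompute the ratio (Krt15 in Langerhans or dendritic-like, hair matrix-like and inner root sheath-like cells) and 19 lost it in at least 1. Of the 3, only the Langerhans or dendritic-like pair also exceeded 2 times the lymphocyte level. The cause of these losses was not tested. The 5 higher pairs became 3 with stricter cell filters, 2 at resolution 0.5 and 2 with thinned cells. The 17 lower pairs became 10 with TMM factors, 9 with DESeq2 size factors, 9 with thinned cells and 9 where only pairs over 2 times the lymphocyte level counted. Cluster 5 went from 0 to 1 of 8 under stricter filters, at resolution 2 (where it was Postn, at 1.22), with the members among the variable genes and without the barcodes common to both libraries, and the subclusters from 1 to 2 pairs at resolution 1. Clustering the libraries separately turned Sox9 in interfollicular basal-like cells to -0.68 and Krt15 in pericyte or smooth muscle-like cells to -0.29. The outer root sheath-like class kept 0 of 8 large ratios, and outer follicle cells 0 of 28 joint pairs, in every alternative run. The count of joint pairs is partly set by the ceiling on pairs with a very common gene. Leaving out barcodes common to both libraries, subclustering at resolution 1 and the lymphocyte mark were chosen after seeing the data.

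No paired analysis was possible because the cells of all samples of a group share 1 matrix whose barcodes do not tell the samples apart, and leaving out a replicate was not run for the same reason. The level mark limits Lgr5, Cd34 and Tbx1 most: they reached 20 CPM in 3, 4 and 5 of 22 classes, and no ratio was read below that.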
